A study of Mus musculus with 7 samples.

Results

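A set of 9 genes of the renal water and urea pathway is described here in kidney RNA: the aquaporin genes Aqp1, Aqp2, Aqp3, Aqp4, Aqp6, Aqp7 and Aqp11, the vasopressin V2 receptor gene Avpr2 and the urea transporter gene Slc14a2. They were found by gene symbol and make up 9 of the 48709 Ensembl genes counted. Of these 9, 8 passed the filter on low counts and were tested for a difference between genotypes, and Avpr2 did not. The libraries are bulk RNA sequencing of kidney from male mice. The wild-type (WT) group has 3 libraries, replicates 1, 2 and 4. The other group has 4 libraries, replicates 1 to 4, from double knockout (DKO) mice lacking Hs3st3a1 and Hs3st3b1, which encode enzymes that add 3-O-sulfate to heparan sulfate. Each library carries its own animal number in the labels and was treated as 1 animal. Age, strain background and the structure of the knockout alleles were not given in the sources used here, and genotype is the one factor that separates the groups in the labels. The title of the study names kidney size and glomerular structure, so the water channels are a readout beside its stated question.

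Aquaporins are membrane channels that let water, and in some members glycerol or other small solutes, cross the lipid bilayer. In the collecting duct, vasopressin binds the V2 receptor on principal cells and raises cyclic AMP, and protein kinase A signalling then moves AQP2 to the apical membrane and increases transcription of its gene. Water leaves the cell through AQP3 and AQP4 on the basolateral side. AQP1 carries the constitutive water reabsorption of the proximal tubule and the thin descending limb, and urea transporters recycle urea in the inner medulla. Expression of all these genes is patterned along the nephron, so their level in bulk kidney RNA also depends on how much of each segment was sampled. In bulk tissue, fewer cells of a type and less RNA per cell cannot be told apart.

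The 250 bases upstream of the start site are shown for 3 of the genes, because Aqp2 and Aqp3 are expressed in the same principal cells and Aqp1 in other segments, and because their levels are compared below. The sequences are from RefSeq on GRCm38.p6, 5′ to 3′ on the strand of the gene. Capitals mark matches to the letters searched, which were TGACGTCA for the cyclic AMP response element, TGACG for its core, AGATAA for GATA factors, TATAA for the TATA box and TGGAAA for the core of NFAT sites. Both strands were searched, and each TGACGTCA also holds TGACG. The Aqp2 window is chr15:99578806-99579055 on the plus strand, the Aqp3 window is chr4:41098184-41098433 on the minus strand and the Aqp1 window is chr6:55336049-55336298 on the plus strand.
Aqp2: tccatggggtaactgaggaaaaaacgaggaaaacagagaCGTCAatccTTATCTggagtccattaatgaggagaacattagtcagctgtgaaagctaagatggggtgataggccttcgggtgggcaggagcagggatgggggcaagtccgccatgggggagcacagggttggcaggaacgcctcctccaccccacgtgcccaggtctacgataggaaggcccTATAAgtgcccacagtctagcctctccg
Aqp3: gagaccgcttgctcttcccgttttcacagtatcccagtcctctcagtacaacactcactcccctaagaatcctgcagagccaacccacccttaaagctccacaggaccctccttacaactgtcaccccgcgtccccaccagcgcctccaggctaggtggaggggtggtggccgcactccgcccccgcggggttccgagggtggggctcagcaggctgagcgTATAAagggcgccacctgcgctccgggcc
Aqp1: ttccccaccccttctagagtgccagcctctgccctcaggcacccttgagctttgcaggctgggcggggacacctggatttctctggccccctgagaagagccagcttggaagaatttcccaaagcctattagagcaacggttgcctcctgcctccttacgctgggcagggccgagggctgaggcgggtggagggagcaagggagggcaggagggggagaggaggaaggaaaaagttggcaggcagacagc
In Aqp2 the TGACG match lay at -211 to -207 and the GATA letters at -202 to -197, both on the opposite strand, and the TATA letters at -28 to -24. Aqp3 held the TATA letters at -29 to -25, and the Aqp1 window held none of the 5. RefSeq windows were used for 7 of the 9 genes, 8 windows in all. Aqp4 and Slc14a2 were left out of this search, so nothing is stated about their upstream sequence. TGACGTCA was in 0 of the 8, against 1.55% of 32851 mouse promoter windows of the same length. TGACG was in 1 of the 8 (Aqp2) against 17.8%, and AGATAA in 2 (Aqp2 and Aqp7) against 9.99%. TATAA was in 3 (Aqp2, Aqp3 and Avpr2) against 22.8%, and TGGAAA in 1 (Aqp7) against 18.6%. A match of letters is a description of the window and does not show binding.

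Total counts ranged from 18330929 to 24259400 per library. Genes that define kidney segments were present in all 7 libraries: Umod of the thick ascending limb at 2835 to 7937 CPM, Slc34a1 of the proximal tubule at 2982 to 5006 CPM, Slc12a3 of the distal convoluted tubule at 333 to 532 CPM and Nphs1 of podocytes at 2.22 to 6.51 CPM. CPM is a read count scaled to a common library size after TMM adjustment. Hs3st3a1 counts were 29, 13 and 12 for the WT libraries against 1, 0, 0 and 3 for the DKO libraries. Hs3st3b1 counts were 56, 90 and 112 for WT against 33, 106, 65 and 108 for DKO, so they did not separate the groups. The part of that gene removed in the knockout was not stated in the labels, so these counts do not check the labels. Reads of a neomycin cassette row were 0 in all WT libraries and 73, 75, 81 and 125 in the DKO libraries. Skeletal muscle and adipocyte markers were highest in DKO replicate 1, at 72.1 summed CPM for 5 muscle genes against 3.43 to 5.40 CPM in the other 6 libraries, and 1163 summed CPM for 6 adipocyte genes against 178 to 813 CPM.

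Levels of different genes were compared per kilobase of merged exons, averaged over the 7 libraries. Aqp2 was the most abundant at 290.4 ± 99.4 CPM per kilobase (SD, n = 7). Aqp3 followed at 105 ± 28.0 and Aqp1 at 69.9 ± 25.7 CPM per kilobase. Aqp2 was above Aqp3 in 7 of 7 libraries with no overlap of their ranges, whereas Aqp3 was above Aqp1 in 5 of 7 and their ranges overlapped. A lower tier held Slc14a2 at 12.9 ± 2.61, Aqp7 at 10.5 ± 2.48, Aqp11 at 9.76 ± 1.29 and Aqp6 at 9.41 ± 3.17 CPM per kilobase. Within that tier each neighbour overlapped the next, and the order held in only 4, 3 and 3 of 7 libraries. Aqp4 was lower at 2.43 ± 0.37 CPM per kilobase, below Aqp6 in 7 of 7 libraries. Avpr2 had the lowest value, 0.044 ± 0.053 CPM per kilobase. Of its exon bases 81.3% also lie in exons of Arhgap4, so its counts are uncertain and this value may not give its level.

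**Figure D1:**
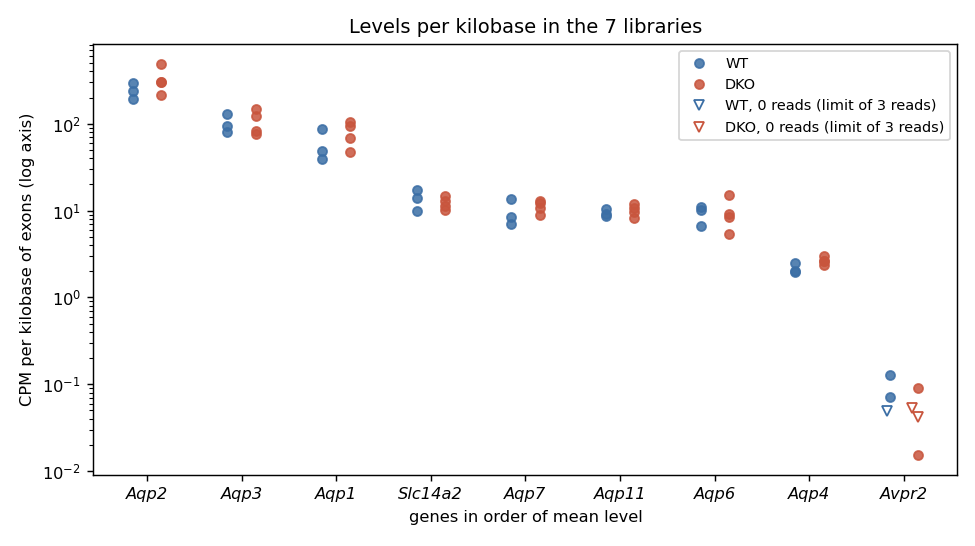
TMM-adjusted CPM per kilobase of merged exons (log axis) for the 9 genes, 1 point per library, with WT and DKO side by side and open triangles at the level of 3 reads where a library had 0 reads. Aqp2 stands above all other genes in every library, and Slc14a2, Aqp7, Aqp11 and Aqp6 overlap one another. Avpr2 has the lowest values, from counts made uncertain by exon bases shared with Arhgap4.

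For none of the 8 tested genes was the difference between DKO and WT larger than the spread of the libraries by the tests run. At an edgeR quasi-likelihood Benjamini-Hochberg adjusted p under 0.05, 0 of the 8 tested were called, as were 0 of all 15394 genes tested (0%). At an unadjusted p under 0.05 the count was again 0 of 8, where 21.1% of all genes passed (9.86% higher and 11.3% lower in DKO). DESeq2 called 0 of the 8, against 4.74% of the 13001 genes to which it gave an adjusted p. In 0 of the 8 did the 4 DKO libraries lie wholly outside the range of the 3 WT libraries, against 17.4% of all genes. Of the 8, 7 had a higher and 1 a lower fitted mean in DKO, with a median log2 fold change of 0.16, beside 8195 higher, 7199 lower and a median of 0.04 over all genes tested.

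The proximal water channels come first. Aqp1 (ENSMUSG00000004655, chromosome 6, 55336432 to 55348555, plus strand, GRCm38, 4 merged exons) encodes the constitutive channel of the proximal tubule and thin descending limb. It was measured at 102, 229.9 and 129 CPM in WT replicates 1, 2 and 4 and 247, 180.3, 273 and 124 CPM in DKO replicates 1 to 4. WT replicate 2 was far above the other WT libraries, and 2 of the 4 DKO libraries (replicates 1 and 3) were above it, so the groups overlapped. Means were 154 ± 67.5 for WT (SD, n = 3) and 206 ± 67.0 CPM for DKO (SD, n = 4), and the DKO to WT ratio was 1.34 with a 95% interval of 0.809 to 2.23 (log2 fold change 0.42 ± 0.33, SE; edgeR adjusted p = 0.466). Without WT replicate 2 the log2 fold change was 0.82 (unadjusted p = 0.023, edgeR adjusted p = 0.16), where 22.8% of all genes passed an unadjusted p under 0.05. Without WT replicate 1 it was 0.19 (unadjusted p = 0.59).

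Aqp7 (ENSMUSG00000028427, chromosome 4, 41033074 to 41048139, minus strand, 10 merged exons) encodes a channel for water and glycerol in the straight (S3) proximal tubule and is also expressed in adipocytes. Libraries gave 24.0, 38.2 and 19.8 CPM in WT replicates 1, 2 and 4 and 36.4, 34.9, 30.3 and 25.1 CPM in DKO replicates 1 to 4. The highest library was WT replicate 2 and the lowest WT replicate 4, so the WT range enclosed all 4 DKO values. Means were 27.3 ± 9.61 for WT (SD, n = 3) and 31.7 ± 5.05 CPM for DKO (SD, n = 4), and the DKO to WT ratio was 1.16 with a 95% interval of 0.819 to 1.64 (log2 fold change 0.21 ± 0.23, SE; edgeR adjusted p = 0.603). Summed S3 markers put the 7 libraries in the same order as Aqp7, from 4286 CPM in WT replicate 2 to 1912 CPM in WT replicate 4. The sum is carried by Napsa and Slc27a2, and other markers of the list ordered the libraries differently, with DKO replicate 1 the lowest library for Slc7a13 (132 CPM) and Atp11a (63.4 CPM). The match of the sum was noticed after the values were seen and was not tested. The summed adipocyte markers, 178 CPM in WT replicate 2 and 1163 CPM in DKO replicate 1, ordered the libraries differently from Aqp7. Without WT replicate 2 the Aqp7 log2 fold change was 0.52 (unadjusted p = 0.027, edgeR adjusted p = 0.17), and without WT replicate 4 it was 0.025 (unadjusted p = 0.91).

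Aqp11 (ENSMUSG00000042797, chromosome 7, 97724006 to 97738289, minus strand, 3 merged exons) encodes an intracellular aquaporin of the proximal tubule, whose loss in mice is known to cause cystic kidneys. Its values were 80.6, 98.9 and 85.2 CPM in WT replicates 1, 2 and 4 and 101, 77.1, 111 and 89.9 CPM in DKO replicates 1 to 4. The spread was narrow and the groups overlapped from end to end, with the lowest and the highest value both in DKO. Means were 88.3 ± 9.51 for WT (SD, n = 3) and 94.7 ± 14.5 CPM for DKO (SD, n = 4), and the DKO to WT ratio was 1.07 with a 95% interval of 0.833 to 1.38 (log2 fold change 0.10 ± 0.17, SE; edgeR adjusted p = 0.746). With length and GC trends removed the log2 fold change was -0.12.

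**Figure D2:**
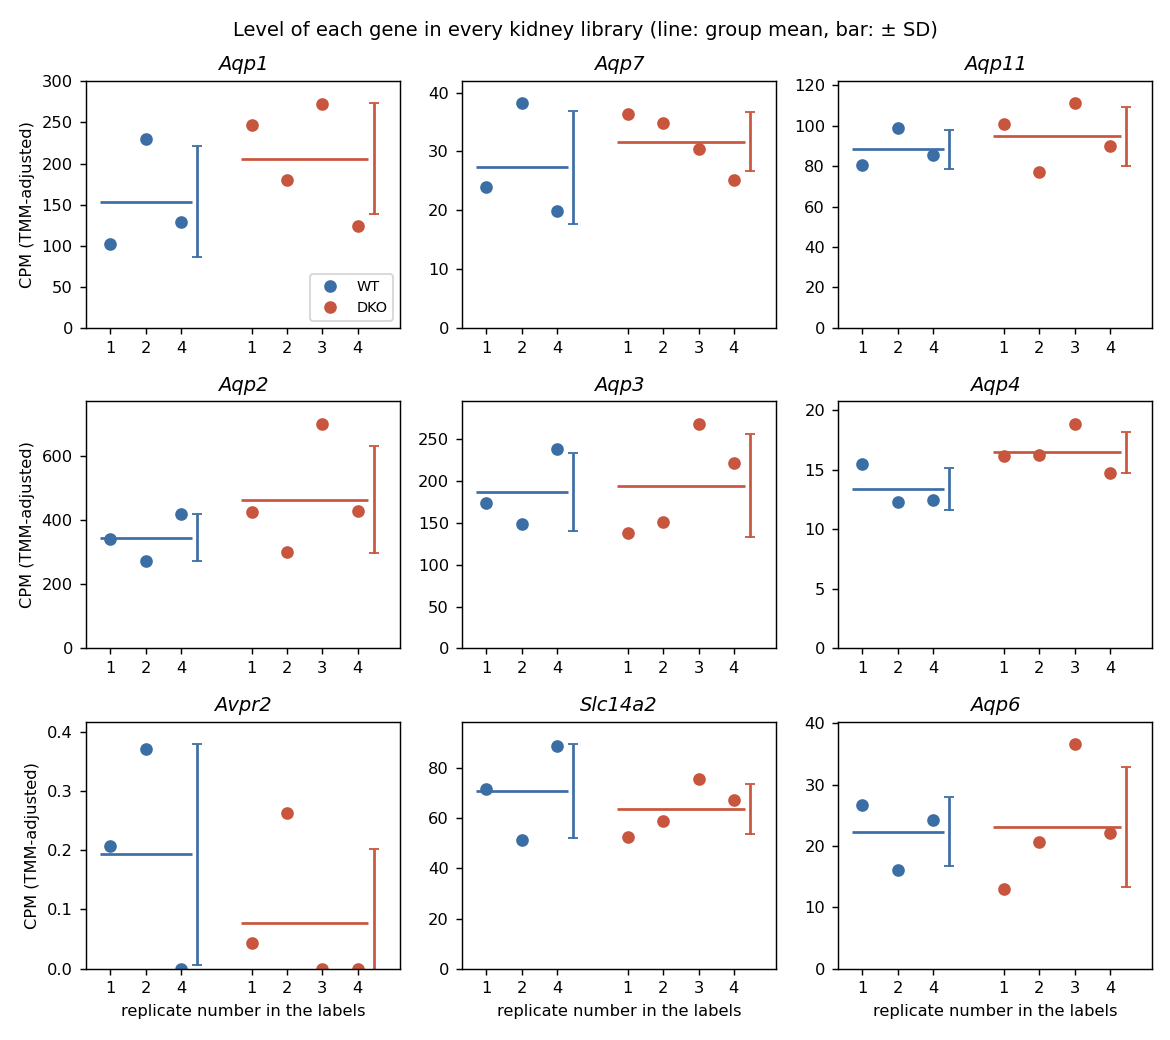
TMM-adjusted CPM (linear axis from 0) of the 9 genes in each of the 3 WT and 4 DKO libraries, with the group mean as a line and ± SD as a bar. DKO replicate 3 is the highest library for Aqp1, Aqp11, Aqp2, Aqp3, Aqp4 and Aqp6, and in every panel the WT and DKO points overlap.

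The vasopressin-regulated apical channel Aqp2 (ENSMUSG00000023013, chromosome 15, 99579055 to 99584547, plus strand, 4 merged exons), whose upstream sequence is shown above, had the largest read numbers of the set. It was measured at 341, 272 and 419 CPM in WT replicates 1, 2 and 4 and 425, 301, 698 and 427 CPM in DKO replicates 1 to 4. DKO replicate 3 stood above all others, 3 of the 4 DKO libraries were above the highest WT library, and DKO replicate 2 lay inside the WT range. Means were 344 ± 73.8 for WT (SD, n = 3) and 463 ± 168 CPM for DKO (SD, n = 4), and the DKO to WT ratio was 1.35 with a 95% interval of 0.889 to 2.04 (log2 fold change 0.43 ± 0.27, SE; edgeR adjusted p = 0.371). Without DKO replicate 3 the log2 fold change was 0.17. It was 0.59 without DKO replicate 2 (unadjusted p = 0.043, edgeR adjusted p = 0.36), where 13.6% of all genes passed an unadjusted p under 0.05. With each library's trend on exon length and GC content removed it was 0.70 (unadjusted p = 0.020, edgeR adjusted p = 0.26), where 16.1% of all genes passed.

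Aqp3 (ENSMUSG00000028435, chromosome 4, 41092722 to 41098183, minus strand, 6 merged exons) encodes the basolateral channel of principal cells for water and glycerol. Its gene lies 44582 bases from Aqp7 on the same strand. Aqp3 values were 174, 148 and 239 CPM in WT replicates 1, 2 and 4 and 137, 151, 268 and 222 CPM in DKO replicates 1 to 4. DKO held both the lowest library, replicate 1, and the highest, replicate 3. Means were 187 ± 46.7 for WT (SD, n = 3) and 195 ± 61.5 CPM for DKO (SD, n = 4), and the DKO to WT ratio was 1.04 with a 95% interval of 0.704 to 1.54 (log2 fold change 0.06 ± 0.26, SE; edgeR adjusted p = 0.914). The sign of this difference changed without WT replicate 1 or 2 or DKO replicate 3 or 4.

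Aqp4 (ENSMUSG00000024411, chromosome 18, minus strand, 11 merged exons) encodes the other basolateral channel of principal cells and is also a gene of astrocytes and skeletal muscle. Aqp4 reached 15.5, 12.3 and 12.5 CPM in WT replicates 1, 2 and 4 and 16.2, 16.2, 18.9 and 14.7 CPM in DKO replicates 1 to 4. Of the DKO libraries, 3 of 4 were above the highest WT library and replicate 4 was below it. Means were 13.4 ± 1.78 for WT (SD, n = 3) and 16.5 ± 1.72 CPM for DKO (SD, n = 4), and the DKO to WT ratio was 1.23 with a 95% interval of 0.955 to 1.58 (log2 fold change 0.30 ± 0.17, SE; edgeR adjusted p = 0.311). Its unadjusted p of 0.0989 was the smallest of the 8. DKO replicate 1, where the muscle markers were highest, had 16.15 CPM of Aqp4, against 16.23, 18.9 and 14.7 CPM in DKO replicates 2, 3 and 4. Any part of muscle in these values was not tested.

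The receptor gene of the pathway had counts close to the limit of detection. Avpr2 (ENSMUSG00000031390, chromosome X, 73892102 to 73895502, plus strand, 3 merged exons) was read 4, 7 and 0 times in WT replicates 1, 2 and 4, against 1, 5, 0 and 0 times in DKO replicates 1 to 4. That is 11 reads in WT and 6 in DKO, 17 in all. The 3 libraries with 0 reads allow up to 3 reads each, which is 0.142 CPM in WT replicate 4, 0.154 CPM for DKO replicate 3 and 0.122 for DKO replicate 4. These limits cover counting error only. Of the 2886 exon bases of Avpr2, 2347 (81.3%) also lie in exons of Arhgap4 on the opposite strand, which had 74 to 154 reads per library. The library kit does not mark the strand, so reads from these bases cannot be assigned to one gene, and the Avpr2 counts are uncertain in every library. No other gene of the set shares exon bases with another gene in the annotation used.

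Slc14a2 (ENSMUSG00000024552, chromosome 18, minus strand, 24 merged exons) encodes the vasopressin-regulated urea transporters of the inner medullary collecting duct and thin descending limb. Its levels were 71.8, 51.5 and 88.9 CPM in WT replicates 1, 2 and 4 and 52.6, 59.0, 75.8 and 67.2 CPM in DKO replicates 1 to 4. It was the 1 gene of the 8 with a lower fitted mean in DKO, and all 4 DKO values lay inside the WT range. Means were 70.7 ± 18.7 for WT (SD, n = 3) and 63.6 ± 10.1 CPM for DKO (SD, n = 4), and the DKO to WT ratio was 0.900 with a 95% interval of 0.661 to 1.22 (log2 fold change -0.15 ± 0.20, SE; edgeR adjusted p = 0.683). Without WT replicate 4 the log2 fold change was 0.04.

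Aqp6 (ENSMUSG00000043144, chromosome 15, 99601400 to 99605477, plus strand, 4 merged exons) encodes an intracellular channel of acid-secreting intercalated cells. The libraries held 26.8, 16.0 and 24.3 CPM in WT replicates 1, 2 and 4 and 13.1, 20.6, 36.6 and 22.2 CPM in DKO replicates 1 to 4. Both extremes were in DKO, replicate 1 being the lowest and replicate 3 the highest. Means were 22.4 ± 5.62 for WT (SD, n = 3) and 23.1 ± 9.82 CPM for DKO (SD, n = 4), and the DKO to WT ratio was 1.03 with a 95% interval of 0.636 to 1.68 (log2 fold change 0.05 ± 0.31, SE; edgeR adjusted p = 0.945). Without WT replicate 2 or DKO replicate 3 the sign changed, to log2 fold changes of -0.15 and -0.25. Aqp6 lies close to Aqp2 on the same strand with Aqp5 between them, 6234 bases from Aqp2 and 6570 bases from Aqp6. Aqp5 had 2, 3 and 7 WT reads and 5, 5, 15 and 9 DKO reads, too few for the test.

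**Figure D3:**
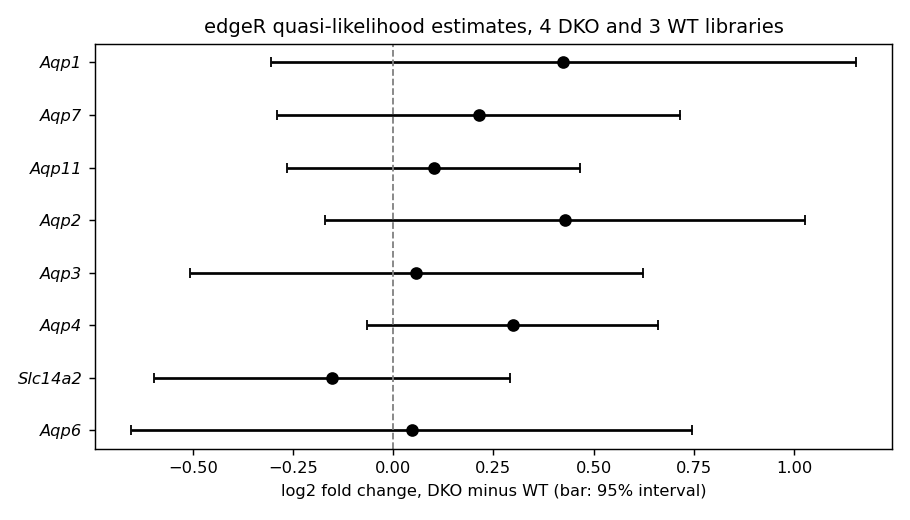
Log2 fold change of DKO against WT for the 8 tested genes, edgeR quasi-likelihood estimates (points) with 95% intervals (bars). Every interval includes 0, from Aqp2 at 0.43 to Slc14a2 at -0.15.

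The intervals state what these libraries could show. For Aqp11 ratios below 0.833 or above 1.38 lie outside it. The Aqp1 interval runs from 0.809 to 2.23 and the Aqp2 interval from 0.889 to 2.04, so a difference of up to about that size between genotypes was not distinguishable from none. The values do not show that the groups were alike.

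The genes differed in how much they varied between libraries. The SD of log2 CPM over the 7 libraries was 0.56 for Aqp1, 0.48 for Aqp6, 0.45 for Aqp2, 0.38 for Aqp3 and 0.35 for Aqp7, and 0.29, 0.22 and 0.19 for Slc14a2, Aqp4 and Aqp11. The median over all genes tested was 0.34. DKO replicate 3 was the highest library for 6 of the 8 genes, at 0.82 log2 units above the mean of the 7 libraries for Aqp2 and 0.75 for Aqp6. WT replicate 2 was the lowest for Aqp2, Aqp4 and Slc14a2 but the highest for Aqp7. The labels name the tissue only as kidney and give no share of cortex and medulla, whose part in these deviations was not tested.

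**Figure D4:**
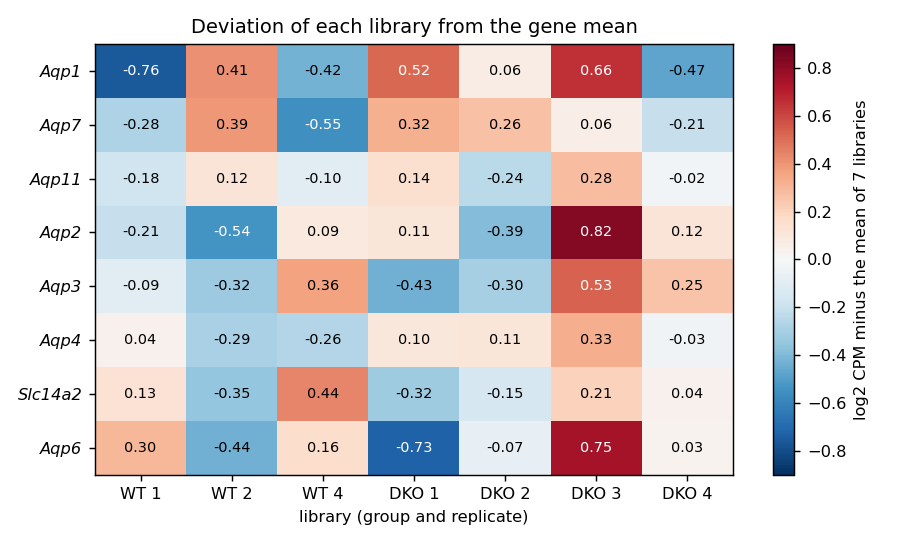
Deviation of log2 CPM (prior count 2) from the mean of the 7 libraries, for the 8 tested genes (rows) in each library (columns), with the value printed in each cell. Aqp2, Aqp3, Aqp4, Slc14a2 and Aqp6 are below their mean in WT replicate 2, where Aqp1, Aqp7 and Aqp11 are above it. All 8 genes are above their mean in DKO replicate 3, from 0.06 for Aqp7 to 0.82 for Aqp2, with Aqp1 at 0.66.

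Likeness of pattern was measured as the root mean square difference of centred log2 CPM over the 7 libraries, as a description that uses both genotypes. Aqp3 was close to Slc14a2 (0.19, rank 33 among 15393 other genes), to Aqp6 (0.25, rank 265) and to Aqp2 (0.28, rank 513). Aqp11 (0.36, rank 2324) was nearer to Aqp3 than Aqp4 (0.38, rank 3133), and Aqp7 lay at 0.62. The median distance of all genes from Aqp3 was 0.47. From Aqp2, Aqp3 lay at 0.28 (rank 199), Aqp4 at 0.33 (rank 746) and Aqp11 at 0.34 (rank 851). Slc14a2 lay at 0.36, Aqp6 at 0.39, Aqp1 at 0.56 and Aqp7 at 0.59 from Aqp2, where the median of all genes was 0.51. Aqp1 was closest among the set to Aqp7 (0.33, rank 287), where the median distance of all genes was 0.60. From Aqp1, Aqp11 lay at 0.40, Aqp4 at 0.48, Aqp2 at 0.56, Aqp3 at 0.67, Slc14a2 at 0.69 and Aqp6 at 0.76. The nearest genes to Aqp1 were Scyl3 (0.13), Slc6a18 (0.14), a neutral amino acid transporter of the proximal tubule, Mab21l4 (0.16), Dglucy (0.17) and Egln3 (0.17), a HIF prolyl hydroxylase. For Aqp2 they were Chst1 (0.11), a carbohydrate sulfotransferase, Rhbdl3 (0.12), Wnt7b (0.13), a Wnt ligand of the collecting duct, Fbxo2 (0.14) and Ifitm1 (0.15). Avpr2 was not tested, and for Aqp3, used in its place, they were Gm37516 (0.12), Gm36371 (0.13), Rsad2 (0.14), Atg3 (0.14) and B4galt6 (0.14). Several of these have a low level, with group means of at most 2.10 CPM for Chst1, Rhbdl3, Fbxo2, Gm37516 and Gm36371.

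Ratios between genes of 1 library remove the scaling. Aqp2 had 1.96, 1.83 and 1.76 reads per Aqp3 read in WT replicates 1, 2 and 4 and 3.09, 1.99, 2.60 and 1.93 in DKO replicates 1 to 4. DKO replicate 4 lay inside the WT range and the other 3 DKO libraries were above it. Aqp2 had 4.75, 5.28 and 4.72 reads per Slc14a2 read in WT and 8.09, 5.11, 9.21 and 6.36 in DKO, with DKO replicate 2 inside the WT range. Aqp2 per Aqp4 read was 22.0, 22.1 and 33.6 in WT and 26.3, 18.6, 37.0 and 29.0 in DKO. There DKO replicate 3 lay above the WT range, replicate 2 below it and replicates 1 and 4 inside it. Aqp2 per Aqp1 read was 3.34, 1.18 and 3.26 in WT and 1.72, 1.67, 2.56 and 3.44 in DKO, and the groups overlapped. Read ratios depend on gene length, so they are compared between libraries and not between genes.

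Other genes of the pathway were taken from lists and are given as counts and medians, with no list called different. Over all genes tested, 9.86% were higher and 11.3% lower in DKO at an unadjusted p under 0.05. In vasopressin and cyclic AMP signalling 21 of 24 genes were tested, of which 0 passed the adjusted test and 2 were higher and 1 lower at an unadjusted p under 0.05, with a median log2 fold change of 0.27. The V1a receptor gene Avpr1a was 8.15, 5.98 and 7.24 CPM in the WT libraries and 4.09, 2.99, 3.59 and 7.14 CPM in the DKO libraries (log2 fold change -0.67 ± 0.29, unadjusted p = 0.0399, edgeR adjusted p = 0.219). Gnas, which encodes the stimulatory G protein subunit, averaged 0.404 ± 0.0355 CPM over WT (SD, n = 3) and 0.890 ± 0.219 CPM over DKO (SD, n = 4) (log2 fold change 1.12 ± 0.41, unadjusted p = 0.0188, edgeR adjusted p = 0.179). Its exons share bases with Nespas (8.8%) and Gm20721 (13.1%) on the opposite strand, and its counts cannot be assigned to one gene. The adenylyl cyclase gene Adcy3 had 0.675, 1.01 and 1.04 CPM in the WT libraries and 1.67, 1.68, 1.44 and 1.27 CPM in the DKO libraries (log2 fold change 0.73 ± 0.33, unadjusted p = 0.0470, edgeR adjusted p = 0.231) and shares 22.1% of its exon bases with Cenpo. Both genes counted as higher rest on few reads. Gnas had 7, 8 and 9 reads in the WT libraries and 14, 21, 20 and 20 in the DKO libraries. Adcy3 had 13, 19 and 22 reads in WT and 38, 32, 28 and 31 in DKO. DESeq2 gave neither an adjusted p. Of the other aquaporin genes, 1 of 5 was tested, Aqp8, at a log2 fold change of -0.44 ± 0.77 (edgeR adjusted p = 0.766). Aqp9 had 0 to 7 reads per library, Mip 1 read in all and Aqp12 0 reads in all 7, which allows up to 3 in each.

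In AQP2 trafficking and turnover, all 19 listed genes were tested, with a median log2 fold change of -0.04. At an unadjusted p under 0.05, 1 was higher and 1 lower, against 9.86% and 11.3% of all genes. Myo5b, the motor that carries recycling vesicles, was 26.3, 32.1 and 22.9 CPM in the WT libraries and 34.3, 38.3, 34.1 and 37.4 CPM in the DKO libraries (log2 fold change 0.41 ± 0.16, unadjusted p = 0.0243, edgeR adjusted p = 0.189), and its groups did not overlap. The Myo5b log2 fold change was 0.15 with length and GC trends removed (unadjusted p = 0.32). Vamp8, a vesicle SNARE, had the lower mean in DKO (log2 fold change -0.47 ± 0.19, edgeR adjusted p = 0.201), at -0.30 without WT replicate 4. The counts of this list were 0 and 0 without WT replicate 4, DKO replicate 2 or DKO replicate 4, and 2 higher and 3 lower without DKO replicate 1.

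The 10 transcription factors linked to Aqp2 or the collecting duct had a median log2 fold change of 0.26. At an unadjusted p under 0.05, 3 were higher and 0 lower, against 9.86% and 11.3% of all genes. Tfcp2l1, a factor of collecting duct cell fate, was 99.5, 102 and 92.8 CPM in the WT libraries and 123, 205, 139 and 177 CPM in the DKO libraries (log2 fold change 0.71 ± 0.19, unadjusted p = 0.00346, edgeR adjusted p = 0.163, DESeq2 adjusted p = 0.0346). All 4 DKO values were above all 3 WT values. With length and GC trends removed the log2 fold change was 0.44 for Tfcp2l1 and 0.37 for Nfat5. Nfat5, the tonicity-responsive factor, had 11.3, 9.90 and 14.9 CPM in the WT libraries and 11.6, 26.1, 17.8 and 24.0 CPM in the DKO libraries (log2 fold change 0.72 ± 0.27, edgeR adjusted p = 0.186), and its DKO replicate 1 lay inside the WT range.

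Osmoprotective genes that NFAT5 regulates import or make organic osmolytes when the medulla is hypertonic. Of 7 genes 6 were tested, with a median log2 fold change of 0.56. At an unadjusted p under 0.05, 3 were higher and 0 lower, against 9.86% and 11.3% of all genes. Slc6a6, the taurine transporter, was 78.1, 102 and 87.7 CPM in the WT libraries and 148, 144, 255 and 133 CPM in the DKO libraries (log2 fold change 0.93 ± 0.24, unadjusted p = 0.00250, edgeR adjusted p = 0.163, DESeq2 adjusted p = 0.0263), with no overlap of the groups. The betaine transporter Slc6a12 had 3.79, 2.86 and 3.60 CPM in the WT libraries and 5.72, 3.26, 13.5 and 5.67 CPM in the DKO libraries (log2 fold change 1.04 ± 0.42, edgeR adjusted p = 0.208), with DKO replicate 3 far above the rest. Without that library the Slc6a12 log2 fold change was 0.53 (unadjusted p = 0.089). The amino acid transporter Slc38a2 had a log2 fold change of 0.53 ± 0.23 (edgeR adjusted p = 0.220). Akr1b3, the aldose reductase of the same list, had a log2 fold change of -0.04 ± 0.23 (edgeR adjusted p = 0.929) and was chosen after its value was seen. With length and GC trends removed, 0 vasopressin and cyclic AMP genes, 2 transcription factors and 2 osmoprotective genes were higher at an unadjusted p under 0.05. Without DKO replicate 1 the counts were 5, 5 and 4, where 24.9% of all genes passed in either direction. The osmoprotective count was 1 without WT replicate 2, WT replicate 4 or DKO replicate 3, and the vasopressin count was 0 without WT replicate 1 and 1 without WT replicate 2, DKO replicate 3 or DKO replicate 4.

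The 7 genes of urea transport and the medullary gradient had a median log2 fold change of -0.06. At an unadjusted p under 0.05, 2 were higher and 3 lower, against 9.86% and 11.3% of all genes. Slc14a1, the other urea transporter gene, was 2.44, 2.28 and 2.13 CPM in the WT libraries and 3.08, 3.78, 4.72 and 3.80 CPM in the DKO libraries (log2 fold change 0.75 ± 0.24, unadjusted p = 0.0108, edgeR adjusted p = 0.164), and the groups did not overlap. Umod had a log2 fold change of -0.68 ± 0.25 (edgeR adjusted p = 0.179), and 19.5% of its exon bases are shared with Gm44588.

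Markers of the cells that carry these channels are given beside them, and their part in the values above was not tested. No listed marker had 0 reads in all libraries. Of 7 principal cell markers outside the set, 0 were higher and 3 lower at an unadjusted p under 0.05 (median -0.18). Over all genes tested the shares were 9.86% higher and 11.3% lower, which applies to each count of markers here. The summed level of the principal cell markers was 413 to 553 CPM in WT and 364 to 476 CPM in DKO. Fxyd4, a regulator of the sodium pump, had -0.51 ± 0.18, Tmem45b -0.54 ± 0.16 and the peptide hormone gene Apela -0.83 ± 0.24 as log2 fold changes, with edgeR adjusted p of 0.169, 0.163 and 0.163. DESeq2 gave adjusted p of 0.0487 for Tmem45b and 0.0396 for Apela. Apela shares 29.6% of its exon bases with Gm45886 on the same strand. Without WT replicate 4 the log2 fold change was -0.45 for Apela and -0.33 for Fxyd4. Of 9 intercalated cell markers 0 were higher and 2 lower (median -0.21), with summed levels of 415 to 665 CPM in WT and 339.99 to 450.2 CPM in DKO. The 2 were Atp6v1g3, a proton pump subunit, at a log2 fold change of -0.98 ± 0.31 (edgeR adjusted p = 0.164, DESeq2 adjusted p = 0.0413), and the ammonia channel gene Rhbg at a log2 fold change of -0.66 ± 0.18 (edgeR adjusted p = 0.163, DESeq2 adjusted p = 0.0356), whose exons are 61.4% shared with Gm38392. Atp6v1g3 was 98.7, 99.6 and 244 CPM in the WT libraries and 74.6, 61.4, 73.3 and 90.0 CPM in the DKO libraries, and without WT replicate 4, the highest, its log2 fold change was -0.41 (unadjusted p = 0.039, edgeR adjusted p = 0.49).

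In the proximal tubule, 2 of 8 S1 and S2 markers were higher and 0 lower at an unadjusted p under 0.05 (median log2 fold change 0.21). At that threshold 9.86% of all genes were higher and 11.3% lower, also for the counts that follow. The phosphate transporter gene Slc34a1 had a log2 fold change of 0.51 ± 0.17 (edgeR adjusted p = 0.166, DESeq2 adjusted p = 0.0300) and the endocytic receptor gene Cubn had a log2 fold change of 0.60 ± 0.17 (edgeR adjusted p = 0.163, DESeq2 adjusted p = 0.0469). Slc34a1 shares 11.7% of its exon bases with Pfn3. Cubn was at 0.25 on the log2 scale with length and GC trends removed. Of 6 S3 markers 0 passed (median 0.04), and Napsa had a log2 fold change of 0.28 ± 0.30. Of 5 thin descending limb markers 1 was higher at an unadjusted p under 0.05 (median 0.24), Cryab at a log2 fold change of 0.45 ± 0.19. Of the 5, 3 had a higher and 2 a lower fitted mean in DKO. Their summed level was 136 to 167 CPM in WT and 170.2 to 257 CPM in DKO. The sum is carried by Cryab, at 125 of 136 CPM in WT replicate 1 and 246 of 257 CPM in DKO replicate 3. Without DKO replicate 3 Cryab was at 0.29 on the log2 scale, and 17.0% of its exon bases are shared with Hspb2. The 6 endothelial, 6 red cell and 6 adipocyte markers had 0 at an unadjusted p under 0.05 and medians of 0.12, -0.40 and 0.0064. Without WT replicate 2, which had the lowest red cell sum (126 CPM), 5 of the 6 red cell markers were lower at an unadjusted p under 0.05. In that fit their median was -0.88 and 22.8% of all genes passed in either direction. WT replicate 2 was the lowest library for all 5, which are the globin genes and Alas2, so they are not separate results. Without WT replicate 1 the red cell median was -0.09. The most abundant members of the 3 lists were Emcn at a log2 fold change of -0.13 ± 0.16, Hbb-bs at a log2 fold change of -1.19 ± 0.62 and Cfd at a log2 fold change of 0.10 ± 0.60. Of 6 urothelial markers 1 was lower (median -0.06), Upk3a at a log2 fold change of -0.55 ± 0.21 (-0.27 without WT replicate 1), and of 5 skeletal muscle markers 2 were tested with 0 passing (median 2.57, and -0.041 from the 1 gene tested without DKO replicate 1), among them Mylpf at a log2 fold change of 0.33 ± 0.33.

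**Figure D5:**
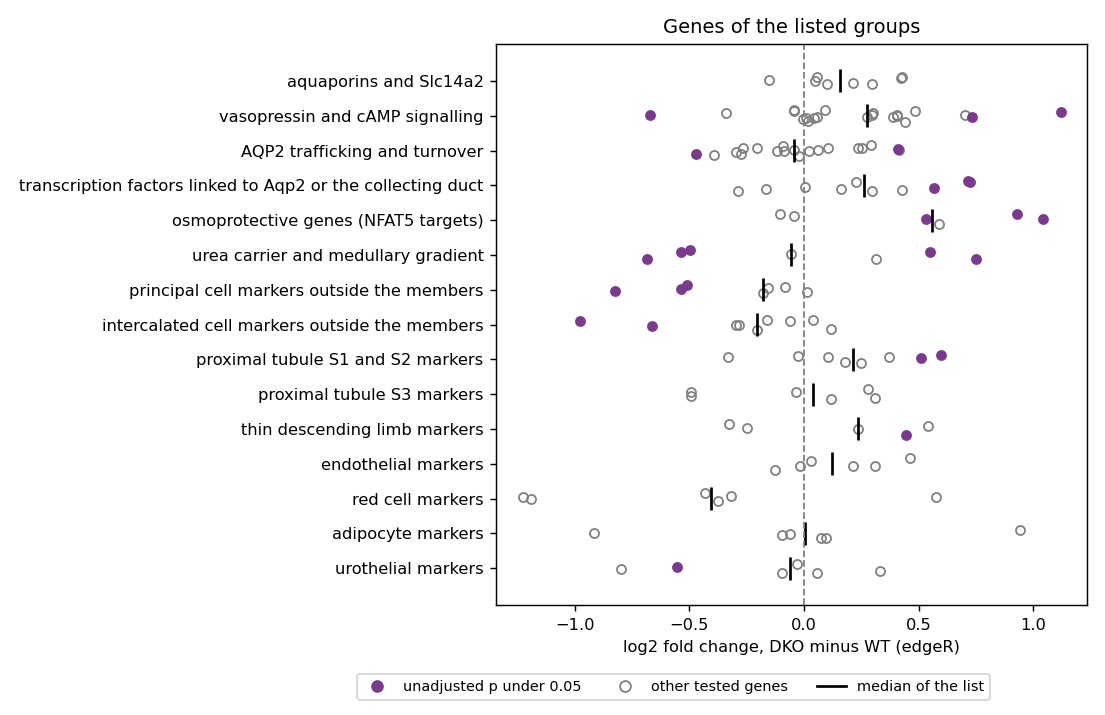
Log2 fold change of DKO against WT for each tested gene of the 15 groups drawn, with filled points for an unadjusted p under 0.05 and a bar at the median of each list; the other aquaporins and the skeletal muscle markers, with 1 and 2 genes tested, are not drawn. No gene of the first row passes. Over all genes tested, 9.86% were higher and 11.3% lower at that threshold. The osmoprotective and transcription factor lists have 3 filled points each above 0. The principal cell list has 3 below 0, and the urea and gradient list 3 below and 2 above 0.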

How the data were processed

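Male mouse kidney RNA (3 WT, 4 DKO) was sequenced as unstranded Nextera XT libraries, per the labels' protocols. Reads were aligned with STAR 2.5.2a, per the submitters' processing notes, which also list DESeq2, edgeR, limma, GRCm38 (mm10) and GRCh38, the last without a stated role. The read counter, annotation release and strand setting were not given in the sources used here. Raw counts per Ensembl gene were deposited by the authors with a TMM-scaled CPM signal, which was used for gene symbols. For the 9 genes this signal was 0.994 to 1.005 times the CPM computed here, where that was above 0. Of 48733 rows, 24 name transgenes or spike-ins, hold at most 0.000697% of counts and were left out of library sizes.

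Genotypes were compared by edgeR 4.0.16 (R 4.3.3) quasi-likelihood tests on the raw counts of all 7 libraries, with TMM scaling, a robust fit and filterByExpr (minimum count 10, minimum total 15), two-sided, with Benjamini-Hochberg adjustment over 15394 genes. Standard errors came from the F statistic and intervals are 95%. DESeq2 1.42.0, limma-voom (limma 3.58.1), RLE scaling, no filter, removal of length and GC trends (splines with 5 degrees of freedom), a replicate block and leaving out each library were alternatives. Exon lengths, positions and overlaps were taken from GENCODE M21 (GRCm38), with 48349 of 48709 genes matched. The tests were also run on counts simulated with the dispersions that edgeR fitted to these data. That run cannot show whether the real counts follow the model. Reads carry no molecular identifiers, so limits from counts cover counting error only.

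The 9 genes and the lists were chosen with earlier results of these data known. The text names all 9, up to 3 genes per list by smallest unadjusted p where that was under 0.05 or otherwise the most abundant one, and the 5 genes most like Aqp1, Aqp2 and Avpr2 (Aqp3 in its place). Genes that the rule names but the text does not are not reported here. P-values measure the spread between animals.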

Additional observations from a re-analysis of the deposited data

Results flagged for a closer look

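Among the DKO libraries, 1 stood far from the other 3 in 6 of 55 quantities, by Dixon's ratio of the gap to the range, past the 95% critical value for 4 samples. For independent and normally distributed quantities chance gives about 1 in 20 such cases. The 55 are not independent, as Cfd is part of the adipocyte sum, so 6 of 55 cannot be judged against that rate. For Avpr2 it was replicate 2 at 0.263 CPM (ratio 0.832), which rests on 5 reads. For Slc6a6 it was replicate 3 at 255 CPM (ratio 0.876). For the summed thin descending limb markers it was also replicate 3, at 257 CPM (ratio 0.860), a sum carried by Cryab at 246 CPM. For Cfd it was replicate 1 at 772 CPM (ratio 0.895), for the summed adipocyte markers replicate 1 at 1163 CPM (ratio 0.877), and for the summed skeletal muscle markers replicate 1 at 72.1 CPM (ratio 0.990). None of the 8 tested water and urea genes was among them. Outside the gene counts, the neomycin cassette row held 354 reads over the 4 DKO libraries and 0 over the 3 WT libraries.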

How the results depend on the processing

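Of 104 repeats of the 8 genes' comparisons, 93 kept the direction of the fold change, 11 reversed it, and none reached an adjusted p under 0.05 (lowest 0.16). With length and GC trends removed Aqp11 was at -0.12, and with limma-voom Aqp6 was at -0.021. Leaving out each library gave log2 fold changes of -0.13 to 0.27 for Aqp3, -0.25 to 0.24 for Aqp6, -0.35 to 0.043 for Slc14a2, 0.19 to 0.82 for Aqp1, 0.17 to 0.59 for Aqp2, 0.23 to 0.40 for Aqp4, 0.025 to 0.52 for Aqp7 and 0.025 to 0.19 for Aqp11. For Cfd the range was -0.45 (without DKO replicate 1) to 0.55, with -0.34 without WT replicate 2, and for Mylpf it was -0.041 (without DKO replicate 1) to 0.50. Of the 8 genes, 1 passed an unadjusted p under 0.05 with length and GC trends removed (Aqp2), and 0 to 2 did when each library was left out.

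Over all genes the adjusted call was made for 0 by edgeR, 616 by DESeq2, 66 without the low-count filter, and 0 to 7 when each library was left out (7 without DKO replicate 1, 1 without WT replicate 2). At an unadjusted p under 0.05 the range over left-out libraries was 1582 (without WT replicate 4) to 3796, with 2075 without DKO replicate 2. The cause was not tested. Over the left-out libraries the numbers higher at an unadjusted p under 0.05 ran from 0 to 5 for vasopressin and cyclic AMP genes, 2 to 5 for transcription factors and 1 to 4 for osmoprotective genes, the highest each time without DKO replicate 1, where 24.9% of all genes passed. With length and GC trends removed 0, 2 and 2 were higher, and the osmoprotective count was 1 with limma-voom. With the replicate block the vasopressin count was 0 and the osmoprotective count 1, and Slc6a12 was at 0.49.

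Same-numbered libraries deviated together by correlations of -0.13, 0.16 and 0.14, and 1 of 3 WT libraries was closest to its own number, so the numbers were not taken to pair animals. With a replicate block 2346 genes passed an unadjusted p under 0.05, 0 the adjusted one, and Aqp3 and Aqp6 reversed to -0.14 and -0.27. The block gave 0.28 for Aqp1, 0.16 for Aqp2, 0.23 for Aqp4, 0.27 for Aqp7, 0.01 for Aqp11 and -0.22 for Slc14a2.

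Avpr2 could not be compared, with 17 reads in all and 81.3% of its exon bases shared with Arhgap4. It was fitted only without the low-count filter, where its fold change depends on the prior count and on exons shared with Arhgap4, so it is not given.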
